A study of Mus musculus with 9 samples.

Results

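The genes described here are 10 members of the Wnt, Eda and Hedgehog pathways and of the hair follicle epithelium, namely Wnt10a, Wnt10b, Lef1, Eda, Edar, Shh, Ptch1, Gli1, Sox9 and Lhx2. They were listed by symbol as genes of follicle development, with no measured value in the rule, and each matched a single row of the 38203 genes in the expression table. All 10 passed a filter on low values that kept 16897 genes. In the epidermis of E18.5 mouse embryos none of the 10 passed the test between genotypes after adjustment over all genes, Wnt10a came nearest, and most of the members were highest together in 1 library each of KO, KH and DKO.

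RNA was sequenced from 9 libraries of purified trunk epidermis, from the basal to the cornified layer, of mouse embryos of mixed C57BL6/129Sv background that had been back-crossed to C57BL6. The 2 WT libraries carried wild-type Esrp1 and Esrp2, the 3 KO libraries lacked Esrp1 (Esrp1-/-, Esrp2+/+), the 2 KH libraries lacked Esrp1 and kept 1 allele of Esrp2 (Esrp1-/-, Esrp2+/-), and the 2 DKO libraries lacked both (Esrp1-/-, Esrp2-/-). Esrp1 and Esrp2 encode epithelial splicing regulators. Both alleles were germline and so were missing from every tissue of the embryo. The Esrp1 deletion was made with Zp3-Cre and came from 1 embryonic stem cell clone, and in the Esrp2 allele, also from 1 clone, a LacZ and neomycin cassette stood in place of the gene. The labels disagree on the controls: the extraction protocol lists them as Esrp1+/+, Esrp2-/-, and the titles and genotype fields as wild type for both genes. Esrp2 stood at 118.1 and 135.8 FPKM in the WT libraries and at 0.0843 and 0.0463 in DKO. In KO, with 2 alleles, it stood at 88.06, 88.41 and 131.1 FPKM, and in KH, with 1 allele, at 38.58 and 89.50, so that KH replicate 2 was not below KO. Esrp1 stood at 119.0 and 141.9 FPKM in WT and between 18.15 and 55.12 in the 7 libraries without Esrp1, a value over the whole gene that also counts reads outside the deleted exons. FPKM is a fragment count scaled to transcript length and to a size of the library, so levels of different genes can be set side by side. How the libraries were scaled to each other is not given in the sources used here. FPKM holds no read counts, so the depth behind each value is unknown.

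Hair follicles form where Wnt ligands from the surface epithelium act through beta-catenin and the Lef1 and Tcf factors to mark a placode. The placode is reinforced by the ligand Eda acting on its receptor Edar, and it then produces Shh, which drives growth of the follicle into the dermis. Ptch1 is the receptor of Shh and Gli1 a transcription factor of the same pathway, and both are also standard targets of Hedgehog signalling. Sox9 and Lhx2 are transcription factors of the growing follicle and its stem cells. Because the epidermis had been peeled from the dermis with trypsin, the dermal papilla, the mesenchymal partner in this exchange, was largely absent. Of 13 dermal papilla genes 11 were under 1 FPKM in every library, as were all 6 endothelial genes, whereas Krt5 and Krt14, the keratins of basal keratinocytes, stood between 1676 and 3896 FPKM. RNA of other cells was present as well: red blood cell markers summed to 15.35 to 1520 FPKM, immune cell markers to 10.01 to 41.82, skeletal muscle markers to 4.023 to 15.52, nearly all of it Mylpf, and Merkel cell markers to 5.949 to 8.549. In bulk RNA from such a sheet, fewer follicle cells and less RNA per follicle cell cannot be told apart.

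In order of their mean level over the 9 libraries the members ran Wnt10b, Gli1, Ptch1, Lef1, Edar, Wnt10a, Lhx2, Shh, Sox9 and Eda. Wnt10b and Gli1 averaged 19.78 and 19.09 FPKM, and Wnt10b was the higher of them in 4 of 9 libraries. The range of each gene overlapped that of the next in the order. Within single libraries Lef1 was above Edar in 9 of 9 and Sox9 above Eda in 9 of 9, and these were the only neighbours with 1 order in all libraries.

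**Figure D1:**
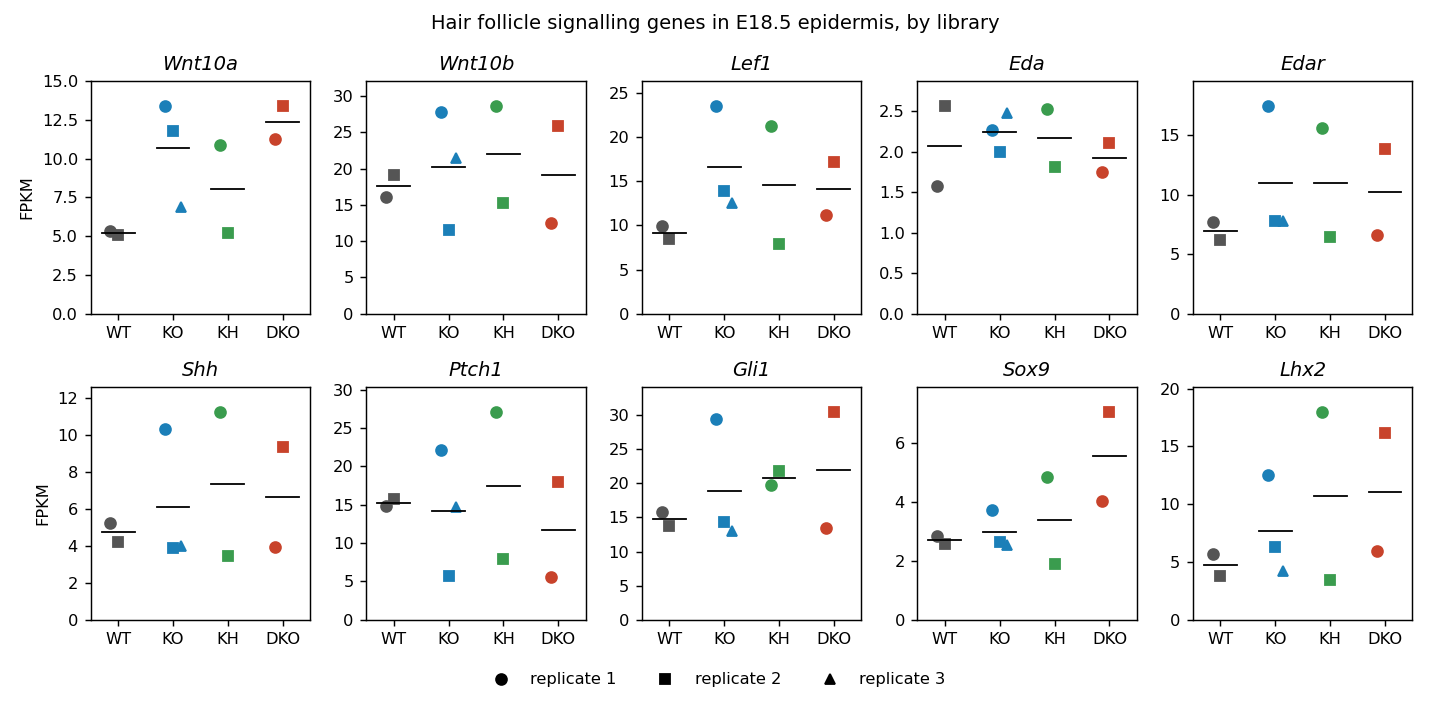
FPKM of the 10 members (vertical axes, each from 0) in each library by genotype, with a symbol for the replicate number and a line at the genotype mean. KO replicate 1, KH replicate 1 and DKO replicate 2 stand above the other libraries for Lef1, Wnt10b, Edar, Shh, Ptch1 and Lhx2, while both DKO libraries of Wnt10a, at 11.28 and 13.41, stand above both WT libraries.

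The Wnt branch was asked first whether its ligands and its nuclear factor differ with the loss of the Esrps. Wnt10a (chr1:74791516-74804179, plus strand, GRCm38 as for all positions), a Wnt ligand of the placode and of later follicle and tooth epithelium, was at 5.353 and 5.097 FPKM in WT. It was at 13.39, 11.79 and 6.860 FPKM in KO, at 10.89 and 5.202 in KH and at 11.28 and 13.41 in DKO. Both DKO and all 3 KO libraries lay above both WT libraries, and only KH replicate 2 lay within the WT range. The mean was 12.35 ± 1.505 FPKM in DKO (SD, n = 2) against 5.225 ± 0.181 in WT (SD, n = 2). On the log2(FPKM + 1) scale, on which changes of low genes are understated, the difference was 1.10 ± 0.369 (SE), with an adjusted p of 0.253 by limma over all 16897 genes. In KO the difference from WT was 0.86 ± 0.337 (SE), with an adjusted p of 0.853 by limma. Before adjustment these limma values were 0.0166 and 0.032. Between genotypes lay 61.7% of the variation of Wnt10a, the largest share of the 10.

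Wnt10b (chr15:98770712-98778150, minus strand), its close paralogue, was at 16.12 and 19.09 FPKM in WT, at 27.80, 11.48 and 21.39 in KO, at 28.63 and 15.24 in KH, and at 12.43 and 25.83 in DKO. Each mutant genotype had libraries on either side of WT. The DKO mean was 19.13 ± 9.470 FPKM against 17.60 ± 2.097 in WT (SD, n = 2 each), and the log2 difference was 0.0338 ± 0.470 (SE), with a 95% interval from -1.04 to 1.11. That interval holds a doubling in either direction. Its share of variation between genotypes, 4.03%, was the lowest of the 10.

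Lef1 (chr3:131110471-131224356, plus strand), the HMG-box factor through which Wnt signals reach the genome, was at 9.903 and 8.406 FPKM in WT. It was at 23.52, 13.86 and 12.54 FPKM in KO, at 21.23 and 7.876 in KH and at 11.16 and 17.17 in DKO. All 3 KO and both DKO libraries lay above both WT libraries, and the KH libraries lay on either side of them. The log2 difference from WT was 0.75 ± 0.411 in KO and 0.55 ± 0.450 in DKO (SE), with adjusted p-values of 0.853 and 0.595 by limma. Without DKO replicate 2 the DKO difference was 0.26, and without KO replicate 1 the KO difference was 0.49. The authors list a Lef1 exon that was included less in DKO than in WT, and FPKM over the whole gene does not show splicing.

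The Eda branch was read in the ligand and in its receptor. Eda (chrX:99975606-100400762, plus strand), a ligand of the tumour necrosis factor family, was the lowest member, at 1.576 and 2.565 FPKM in WT and between 1.749 and 2.531 in the 7 mutant libraries. All mutant libraries lay inside the WT range. The 95% interval of the DKO difference ran from -0.566 to 0.462 on the log2 scale, the narrowest of the 10. Of the libraries, WT replicate 2 and the 3 KO libraries had Xist, the RNA of the inactive X chromosome, at 76.21 FPKM or more. WT replicate 1 and all KH and DKO libraries had 0.178 or less. Sex was thus split unevenly over the genotypes, and in DKO against KO and KH against KO it cannot be told apart from genotype. The part of sex in the values of Eda and of the other members was not tested.

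Edar (chr10:58600789-58675654, minus strand), the receptor of Eda and a mark of the placode, was at 7.690 and 6.199 FPKM in WT. In KO it was at 17.45, 7.767 and 7.764 FPKM, in KH at 15.56 and 6.400, and in DKO at 6.633 and 13.81. A single library of each mutant genotype was near or above 14 FPKM, and the rest lay between 6.199 and 7.767. All 3 KO libraries exceeded both WT libraries, KO replicates 2 and 3 by less than 0.1 FPKM. The DKO difference was 0.43 ± 0.507 (SE) on the log2 scale, with an adjusted p of 0.726 by limma, and was -0.0513 without DKO replicate 2.

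Because several members of the Wnt branch and Edar varied together, the 250 bases before their start sites were searched for the Lef1/Tcf motif CTTTGAT on both strands. RefSeq promoter windows (GRCm38.p6) were matched for 6 of the 10 members (Lhx2, Lef1, Edar, Ptch1, Wnt10b and Eda), with 10 windows in all. The motif was in 1 of these windows, that of Edar, and in 3.21% of 32851 mouse windows. Among the 120 members and pathway genes with a window, 5 held it, including Tnfrsf19, a receptor related to Edar. The windows of both receptors are shown because they are the receptors among these 5 genes, with the motif in capitals and read 5′ to 3′ on the strand of the gene. They lie on the minus strands of chr10:58675697-58675946 and chr14:61037988-61038237, and the motif begins at -233 and -202 relative to the start of the gene, on the opposite strand in Tnfrsf19.
Edar: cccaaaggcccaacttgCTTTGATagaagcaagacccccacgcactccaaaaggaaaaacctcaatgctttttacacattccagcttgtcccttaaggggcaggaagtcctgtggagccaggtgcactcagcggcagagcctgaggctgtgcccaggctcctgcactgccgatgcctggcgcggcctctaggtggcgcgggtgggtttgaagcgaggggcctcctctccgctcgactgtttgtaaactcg
Tnfrsf19: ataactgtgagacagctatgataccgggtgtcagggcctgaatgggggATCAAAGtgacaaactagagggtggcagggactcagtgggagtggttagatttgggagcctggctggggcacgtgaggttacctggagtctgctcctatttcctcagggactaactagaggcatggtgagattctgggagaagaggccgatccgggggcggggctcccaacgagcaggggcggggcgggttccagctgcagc
The Gli motif GACCACCCA was in 0 of the 10 member windows and in 0.225% of all windows, which says only that these letters are not in these 250 bases.

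The Hedgehog branch was read in the ligand, the receptor and the transcription factor. Shh (chr5:28456815-28467256, minus strand), the secreted ligand, was at 5.247 and 4.225 FPKM in WT, at 10.34, 3.899 and 3.981 in KO, at 11.23 and 3.433 in KH and at 3.929 and 9.352 in DKO. In each mutant genotype 1 library was above both WT libraries and the others were below both. The DKO difference was 0.32 ± 0.584 (SE) on the log2 scale, with an adjusted p of 0.828 by limma, and was -0.213 without DKO replicate 2. The deposited locus of Shh runs on to a neighbour, so that it shares its place with 2 other genes in the table, of which Gm26894 averaged 0.539 FPKM.

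Ptch1 (chr13:63508328-63573598, minus strand) was at 14.77 and 15.69 FPKM in WT. It was at 22.14, 5.657 and 14.69 FPKM in KO, at 27.07 and 7.901 in KH and at 5.553 and 17.91 in DKO. The WT libraries lay in the middle, with mutant libraries above and below, and the within-genotype SD of 0.92 on the log2 scale was the largest of the 10. The DKO difference was -0.54 ± 0.723 (SE), with a 95% interval from -2.19 to 1.10 and an adjusted p of 0.757 by limma. Without DKO replicate 1 it was 0.22.

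Gli1 was at 15.85 and 13.69 FPKM in WT, at 29.44, 14.40 and 12.94 in KO, at 19.82 and 21.79 in KH and at 13.41 and 30.43 in DKO. It was the only member with both KH libraries above both WT libraries, and the only one of the 10 for which KH replicate 2 was not below KH replicate 1. The DKO difference was 0.44 ± 0.438 (SE) on the log2 scale, with an adjusted p of 0.672 by limma, and was -0.127 without DKO replicate 2. Gli1 (chr10:127329882-127341974, minus strand) overlaps Arhgap9 on the other strand, which averaged 3.026 FPKM. Whether fragments were counted by strand is not given in the sources used here, so the share of these reads in Gli1 is uncertain.

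The transcription factors of the follicle epithelium came last. Sox9 (chr11:112782224-112787760, plus strand), which marks the outer root sheath and the stem cells, was at 2.836 and 2.574 FPKM in WT, at 3.726, 2.646 and 2.540 in KO, at 4.853 and 1.901 in KH and at 4.032 and 7.034 in DKO. Both DKO libraries lay above both WT libraries. The DKO difference was 0.78 ± 0.364 (SE) on the log2 scale, with an adjusted p of 0.389 by limma, and 47.9% of its variation lay between genotypes. Without DKO replicate 2 the difference was 0.44.

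Lhx2 (chr2:38339281-38369733, plus strand), a LIM homeobox factor of the follicle bud and bulge, was at 5.712 and 3.787 FPKM in WT, at 12.53, 6.261 and 4.226 in KO, at 17.97 and 3.428 in KH and at 5.983 and 16.13 in DKO. Its KH libraries differed 5.24-fold, the widest gap within a genotype among the 10, and the lower of them lay below both WT libraries. Both DKO libraries lay above both WT libraries, DKO replicate 1 by less than 0.3 FPKM. The DKO difference was 0.95 ± 0.717 (SE) on the log2 scale, with an adjusted p of 0.569 by limma, and was 0.30 without DKO replicate 2.

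**Figure D2:**
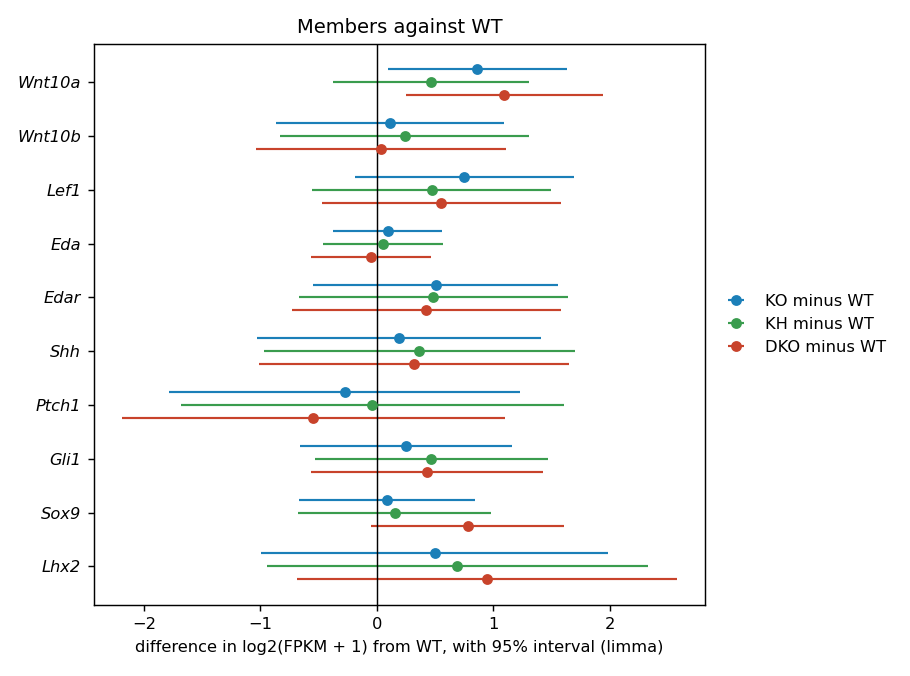
Difference from WT in log2(FPKM + 1) for each member (rows) in KO, KH and DKO, with points at the limma estimate and bars for its 95% interval. The intervals of Wnt10a in KO and DKO start at 0.0936 and 0.254, and the intervals of the other members all cross 0.

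Over the 10 members, 0 were called in DKO against WT by limma, at an adjusted p below 0.05 and more than a 2-fold difference in mean FPKM, where 0.728% of all tested genes were called. With an unadjusted p below 0.05 there was 1 member, Wnt10a, and 13.8% of all tested genes. In KO against WT limma called 0 members, with 0.0296% of all genes called, and 1 member, again Wnt10a, and 4.53% of all genes had an unadjusted p below 0.05. In KH against WT limma called 0 members, with 0.0296% of all genes called, and 0 members and 3.72% of all genes had an unadjusted p below 0.05. Among the mutants limma called 0 members in DKO against KO, DKO against KH and KH against KO, where it called 0.639%, 0.426% and 0.0% of all genes. An unadjusted p below 0.05 was found in 0 members in each of these 3 comparisons, and in 6.8%, 5.71% and 1.09% of all genes. In DKO against KO and KH against KO the sex of the embryos differed together with the genotype.

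The comparisons with WT share the same 2 WT libraries. The median log2 difference of the members was 0.43 in DKO, 0.22 in KO and 0.415 in KH, and that of all tested genes was 0.0199, 0.0 and 0.0. By estimate 8 members were higher and 2 lower than WT in DKO, and 9 were higher and 1 lower in KO and in KH. Every DKO library was above every WT library for 4 members (Wnt10a, Lef1, Sox9 and Lhx2) and for 27.8% of all genes. The same held in KO for 3 members (Wnt10a, Lef1 and Edar) and 12.6% of all genes, and in KH for 1 member (Gli1) and 15.3% of all genes. No member had every library of a mutant genotype below both WT libraries, a pattern that 26.4% of all genes showed in DKO, 12.1% in KO and 16.6% in KH.

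For 9 of the 10 members more of the variation lay within genotypes than between them, the exception being Wnt10a. The median within-genotype SD was 0.56 on the log2 scale for the members and 0.24 for all tested genes, and the median share of variation between genotypes was 16.1% for the members and 35.8% for all genes. DKO replicate 2 exceeded DKO replicate 1 in 10 of 10 members, by 1.19-fold to 3.23-fold, where 46.1% of all genes were higher in it. KH replicate 1 exceeded KH replicate 2 in 9 of 10 members, where 45.2% of all genes were higher in it. KO replicate 1 exceeded KO replicate 2 in 10 of 10 and KO replicate 3 in 9 of 10, where 47.2% and 49.3% of all genes were higher in it. The 2 WT libraries were closer, and WT replicate 2 was the higher for 3 of 10 members.

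The 3 libraries with the highest levels were KO replicate 1, KH replicate 1 and DKO replicate 2 for 6 of the 10 members, namely Lef1, Wnt10b, Edar, Shh, Ptch1 and Lhx2, and for 9.49% of all tested genes. After rescaling to TPM, which sets every library to the same total, they were the 3 highest for 9 of 10 members and 25.5% of all genes, and after median ratio scaling for 6 members and 10.7%. This pattern was noticed in the data, and its count is a description. Summed over the 10 members, these libraries held 162.6, 159.8 and 153.2 FPKM, and the other 6 held between 74.98 and 89.41, WT included at 85.05 and 81.32.

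Other values moved with the same libraries. Their FPKM values over all genes summed to 734747, 713318 and 771857, against 867380 to 1130713 in the other 6. Markers of the granular and cornified layers summed to 6218, 5172 and 7054 FPKM against 11500 to 15740 in the others, and markers of the spinous layer to 31890, 38460 and 35250 against 60820 to 85780. Basal keratinocyte markers summed to 8537, 7576 and 7406 FPKM against 4137 to 6607, and most of each sum was Krt5 and Krt14. Krt15 of the same list was at 659.3, 588.1 and 287.7 FPKM against 483.8 to 1109 in the others, and Trp63 at 66.57, 71.35 and 47.85 against 33.46 to 53.57. The 8 melanocyte markers summed to 95.67, 165.4 and 224.3 FPKM against 48.42 to 102.5. The 10 fibroblast markers summed to 494.6, 465.1 and 347.6 FPKM against 251.2 to 398.5, most of it Postn and Dcn. The collagen genes were low, and KO replicate 1 stood apart in them. Col1a1 was there at 2.650 FPKM against 0.2899 or less in the other libraries, Col1a2 at 4.691 against 2.238 or less and Col3a1 at 5.390 against 0.9663 or less. The dermal papilla list summed to 7.368, 5.567 and 2.548 FPKM against 3.081 to 4.752. The part of these cell layers, cell types and totals in the levels of the members was not tested.

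**Figure D3:**
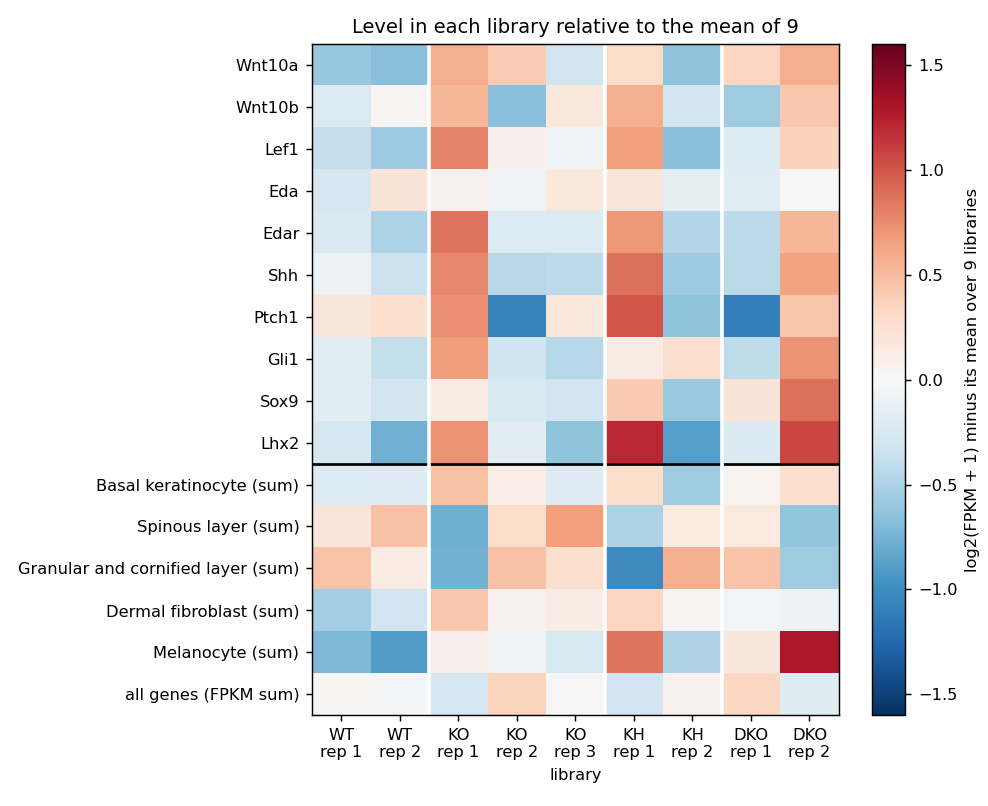
Log2(FPKM + 1) of each member, of 5 summed marker lists and of all genes (rows) in each library (columns), as the difference from the mean over the 9 libraries, with red above and blue below that mean. KO replicate 1, KH replicate 1 and DKO replicate 2 are red for most members and for the basal list and blue for the spinous list, the granular and cornified list and the FPKM sum.

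Without these 3 libraries together, an alternative chosen after seeing the data, KH and DKO are left with 1 library each. Since the members were highest in the libraries left out, lower differences follow from the choice. Of the DKO differences from WT, those of Edar, Gli1, Shh and Wnt10b then turned negative, beside Ptch1 and Eda, which were negative before. Those of KO turned negative for Gli1, Shh, Wnt10b and Sox9, and those of KH for 8 members, Wnt10a among them at -0.00489. The KO and DKO differences of Wnt10a, Lef1 and Lhx2 stayed above 0. Apart from Lhx2 in KO this too follows from the values, since every library of that genotype lay above both WT libraries.

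The genes whose profile over the 9 libraries was nearest to each member were found among 12197 genes averaging over 1 FPKM, by the root mean square of the difference between their log2(FPKM + 1) values, each centred on its own mean. Lef1 lay nearest to Sept9 at 0.0876 log2 units, with Mthfd1 and Mcm3 next, where Lef1 itself varied by 0.492. Wnt10a lay nearest to Krt14 at 0.0866, followed by Cenpm and Mfge8. Krt14 was at 1805 and 1722 FPKM in WT, at 3692, 3202 and 2133 in KO, at 3260 and 1810 in KH and at 3032 and 3596 in DKO, in almost the same order as Wnt10a. Wnt10b was nearest to Slfn9, Frem2 and Abl1, and Shh to Ccne2, Nrp2 and Col4a1. Edar was nearest to Uhrf1, with D17H6S56E-5 and Bnc1 next. Ptch1 had no gene nearer than Tnrc18 at 0.222, followed by Foxi3 at 0.239 and Ston1. Gli1 was nearest to Col7a1 at 0.0933, which had the same raised KH replicate 2 at 28.05 FPKM, and then to Gyltl1b and Ptprs. Sox9 was nearest to Cgnl1 and AI464131, Lhx2 to Basp1, Tspan18 and Nrp2, and Eda to Prmt6, Tmx2 and Wdr45l. All these profiles share the same 9 libraries, so likeness is a description of these libraries.

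The rest of the pathways was read from 8 lists with 168 genes, of which 144 were tested. In DKO against WT limma called 2 of the 144 higher and 0 lower, where it called 0.728% of all tested genes, and 29 had an unadjusted p below 0.05, as did 13.8% of all genes. In KO and in KH against WT limma called 0 of the 144, and 8 in each had an unadjusted p below 0.05, as did 4.53% and 3.72% of all genes. The median log2 difference over the 144 genes was 0.14 in DKO, 0.0973 in KO and 0.13 in KH. KO replicate 1, KH replicate 1 and DKO replicate 2 were the 3 highest libraries for 52 of the 144, or 36.1%, and for 9.49% of all tested genes. After rescaling to TPM they were so for 72 of the 144 and 25.5% of all genes. The share was 76.5% in the Hedgehog list (13 of 17 genes, among them Smo, Gli2 and Gli3), 52.9% in the follicle epithelium list (9 of 17), 43.8% among Wnt inhibitors and feedback targets (7 of 16, among them Axin2), 37.0% among Wnt receptors and transducers (10 of 27), 29.4% in the Eda list and in the hair matrix and Bmp list, 18.8% among Wnt ligands and 0.0% among the structural genes of the hair shaft and inner root sheath.

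Besides the genes called, those named below had the largest DKO differences in either direction among genes averaging at least 1 FPKM in WT or DKO whose DKO libraries both lay on 1 side of both WT libraries. Without 1 of the libraries 16 of these 28 differences moved by over 1.5 times, and 0 changed sign. No sign could change, since both DKO libraries of each gene lay on 1 side of both WT libraries. The counts at an unadjusted p below 0.05 in each list stand beside 13.8% of all genes.

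None of the 16 Wnt ligand and secretion genes tested was called by limma in DKO against WT, and 0 had an unadjusted p below 0.05. The ligands Wnt7a and Wnt6 had differences of 0.60 ± 0.354 and 0.35 ± 0.368 (SE), and Wnt16 one of -0.33 ± 0.339. Of the 27 receptors and transducers limma called 0, and 1 had an unadjusted p below 0.05. There Tcf7, a factor of the same family as Lef1, had a difference of 0.70 ± 0.328 (SE), the receptor Fzd2 one of 0.26, the kinase Gsk3b one of -0.58 and the receptor Fzd10 one of -0.47.

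Of 16 Wnt inhibitors and feedback targets limma called 0 in DKO against WT, and 6 had an unadjusted p below 0.05. Dkk4, a secreted Wnt inhibitor made by placodes, was at 2.802 and 1.720 FPKM in WT, at 5.888, 4.450 and 2.028 in KO, at 4.786 and 1.886 in KH and at 7.966 and 7.827 in DKO. Both DKO libraries were above every other library, and the difference from WT was 1.47 ± 0.440 (SE), with an adjusted p of 0.208 by limma. Over the alternatives that kept all libraries, the block by description number apart, the adjusted p of Dkk4 ran from 0.0388 to 0.362 by limma. Notum, an enzyme that inactivates Wnt ligands, was at 1.574 and 0.823 FPKM in WT and at 3.242 and 3.581 in DKO, a difference of 1.02 ± 0.329 (SE) with an adjusted p of 0.234 by limma. The Dkk receptor Kremen1 had a difference of -0.61 ± 0.265 (SE). Kremen2, the other Dkk receptor of the list and named in addition, had one of 0.69 ± 0.303 (SE) in the opposite direction.

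Of 17 Eda pathway genes limma called 0 in DKO against WT, and 7 had an unadjusted p below 0.05. Eda and Edar act through NF-kB. Nfkbia, the NF-kB inhibitor that is also its target, was at 27.27 and 23.37 FPKM in WT, between 31.30 and 37.61 in KO and KH and at 45.11 and 49.52 in DKO. All 7 mutant libraries were above both WT libraries and the DKO libraries were the highest, with a difference of 0.88 ± 0.189 (SE) and an adjusted p of 0.104 by limma. The NF-kB subunit gene Relb was at 2.903 and 2.846 FPKM in WT and at 6.791 and 7.086 in DKO, a difference of 1.03 ± 0.277 (SE) with an adjusted p of 0.169 by limma. In the opposite direction stood Traf6, an adaptor of the pathway, at -1.02 ± 0.338 and Ikbkg, the regulatory subunit of the IkB kinase, at -0.78 ± 0.333 (SE). The adjusted p of Relb ran from 0.0399 to 0.437 by limma over the alternatives that kept all libraries, the block by description number apart. That of Nfkbia ran from 0.0257 to 0.39 by limma.

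Of 17 Hedgehog genes limma called 0 in DKO against WT, and 1 had an unadjusted p below 0.05. Mycn, a target in growing follicles, had a difference of 0.96 ± 0.485 (SE), which was 0.42 without DKO replicate 2, and stood at 5.604 FPKM in KH replicate 1 and 5.838 in DKO replicate 2 against 2.868 or less elsewhere. Smo, the transducer that Ptch1 holds in check, had a difference of 0.33 and Spop, a ubiquitin ligase adaptor for Gli proteins, one of -0.53. Of 17 follicle epithelium and stem cell genes limma called 0, and 3 had an unadjusted p below 0.05, while in 14 of 17 both DKO libraries were above both WT libraries, as in 27.8% of all genes. Sox21 and Lmo1 had differences of 0.96 ± 0.465 and 0.82 ± 0.451 (SE), and that of Sox21 was 0.475 without DKO replicate 2. Krt15, a keratin of basal and bulge cells, had a difference of -1.27 ± 0.379 (SE), with an adjusted p of 0.208 by limma, which was -0.68 without DKO replicate 2. Its 990.3 and 1109 FPKM in WT were above the 7 mutant libraries at 287.7 to 675.7.

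Of 17 hair matrix and Bmp genes limma called 0 in DKO against WT, and 4 had an unadjusted p below 0.05. The ligand Bmp4 stood at 1.055 and 0.406 FPKM in WT and at 2.247 and 4.327 in DKO, a difference of 1.29 ± 0.384 (SE) with an adjusted p of 0.207 by limma. Its target Id3 had a difference of 0.85 (0.41 without DKO replicate 2), the receptor Bmpr1a one of -0.53 and the repressor Prdm1 one of -0.49.

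The calls in these lists were in hair structural genes. Of 17 tested, limma called 2 higher in DKO, and 7 had an unadjusted p below 0.05. Only 5 of the 17 averaged at least 1 FPKM over the 9 libraries. Krt25, Krt35 and Krt71, keratins of the shaft and inner root sheath, were under 1 FPKM in every library. Krt84, a hair keratin, was at 0.228 and 0.453 FPKM in WT, at 0.0823 to 0.401 in KO and KH and at 4.634 and 3.614 in DKO. The difference between DKO and WT was 1.93 ± 0.171 (SE), with an adjusted p of 0.00133 by limma, and it was also called against KO and KH with adjusted p-values of 0.000486 and 0.000806. With a replicate block by the numbers in the sample descriptions, which leaves 1 residual degree of freedom, these calls were lost (adjusted p of 0.304, 0.173 and 0.174 by limma, at differences of 1.99, 2.09 and 2.14). With a block by the replicate numbers of the titles they passed (0.0153, 0.0135 and 0.013). With a pseudocount of 0.1 the Krt84 difference between DKO and WT was 3.3, with an adjusted p of 0.0251 by limma. Krt75, a keratin of the companion layer, was at 0.0104 and 0.00595 FPKM in WT, at 0.0111 to 0.0906 in KO and KH and at 0.481 and 0.418 in DKO. Its difference from WT was 0.52 ± 0.0787 (SE), with an adjusted p of 0.0234 by limma, at levels under 1 FPKM in every library. With a pseudocount of 0.1 the Krt75 difference was 2.34, with an adjusted p of 0.0354 by limma. The call was lost with only the 2 genotypes compared, without the eBayes trend, with the replicate block by title number and with that by description number (adjusted p of 0.0535, 0.146, 0.107 and 0.49 by limma). It was also lost without WT replicate 1, WT replicate 2, KO replicate 2, DKO replicate 1 or DKO replicate 2 (adjusted p of 0.174, 0.163, 0.0514, 0.0986 and 0.0513). Krt34, another hair keratin, stood at 0.669 and 0.785 FPKM in WT, at 0.501 to 1.803 in KO and KH and at 14.25 and 3.647 in DKO, and its difference of 2.29 ± 0.484 (SE) had an adjusted p of 0.0982 by limma. Without DKO replicate 1 that difference was 1.43, without DKO replicate 2 it was 3.14 with an adjusted p of 0.011, and with TPM or arrayWeights the adjusted p was 0.0298 or 0.0235, so this call turned on the library and the setting. Tchh, the trichohyalin of the inner root sheath, had a difference of -1.48 ± 0.542 (SE), with 20.14 FPKM in WT replicate 2 and 6.734 or less in the other 8 libraries. Keratin genes share sequence with close paralogues, so the split of reads between them is uncertain.

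**Figure D4:**
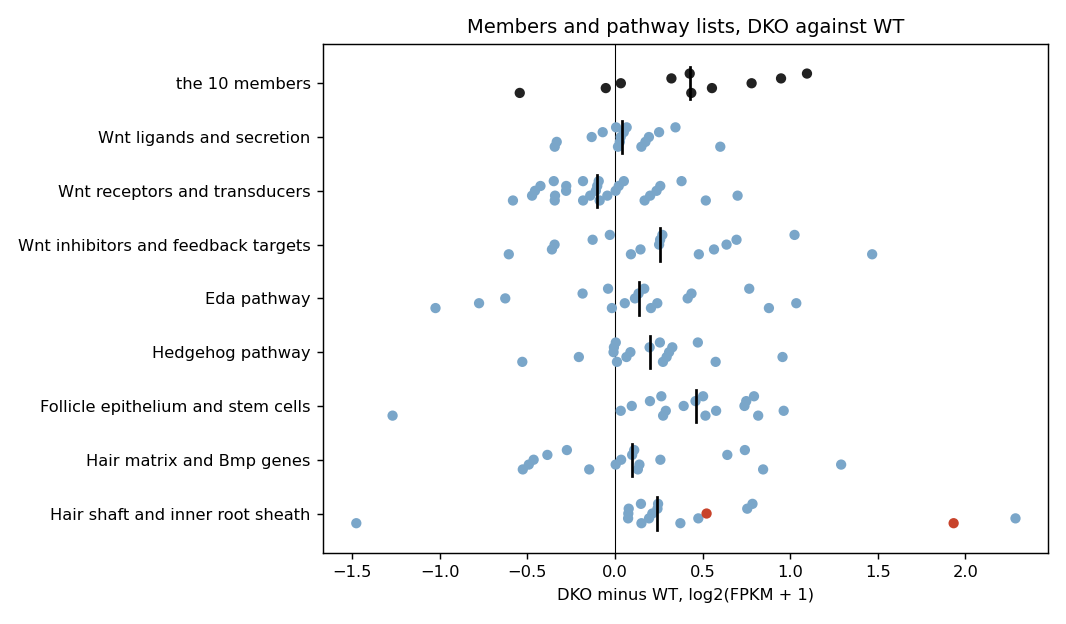
Difference between DKO and WT in log2(FPKM + 1) (horizontal axis) for each tested gene of the 10 members and of the 8 lists (rows), with a line at each median and red points for genes called. The members run from -0.54 to 1.10 around a median of 0.43, and the 2 red points are Krt75 at 0.52 and Krt84 at 1.93.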

How the data were processed

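RNA of E18.5 trunk epidermis was sequenced by the authors with a stranded mRNA kit in 9 libraries. The deposited values are FPKM per gene, which the authors made with TopHat 1.4.1 on mm10 and the Ensembl release 72 transcriptome and with Cuffdiff 2.2.0. The options for scaling between libraries and for strand are not given in the sources used here. Libraries were grouped by the genotype in their labels. The authors' mean columns and fold changes were not used.

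Genes averaging over 0.1 FPKM in at least 1 genotype (16897 of 38203) were fitted as log2(FPKM + 1) in limma 3.58.1 (R 4.3.3) with 4 genotype means, an eBayes trend and all 9 libraries, and p-values were adjusted by Benjamini-Hochberg over all genes in each of 6 comparisons. A call needed an adjusted p below 0.05 and over 2-fold in mean FPKM, and tests are two-sided. The script was tested on simulated data. The labels name separate samples of a genotype but not litters, so p-values measure the spread between these samples.

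The members, lists and tests were chosen with earlier results of these data known. Pathway genes named are those called and up to 2 in each direction with the largest DKO difference in each list, among genes averaging at least 1 FPKM in WT or DKO whose DKO libraries did not overlap WT. The genes nearest in profile to each member are named up to 3 a member, and 1 of them is not reported here. Positions and overlaps are from GENCODE M21 (GRCm38), and promoters from RefSeq. Alternatives were a pseudocount of 0.1, no filter or a filter at 1 FPKM, only the 2 genotypes compared, no trend, TPM, median ratio scaling, arrayWeights, a replicate block and leaving out each library. Tables and plots were made in Python 3.11.15 (numpy 2.4.6, pandas 2.3.3, matplotlib 3.10.9).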

Additional observations from a re-analysis of the deposited data

How the results depend on the processing

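Limma called 0 members in each of the 6 comparisons under every alternative run, and the number with an unadjusted p below 0.05 moved. In DKO against WT it was 0 with TPM, 2 with arrayWeights and 2 with only the 2 genotypes compared, where 10.9%, 22.3% and 21.2% of all genes had such a p. In KO against WT it was 0, 2 and 2, beside 3.35%, 1694 of 16897 and 6.31% of all genes, and in DKO against KO it was 1 with arrayWeights and 1 with only those genotypes, beside 7.53% and 7.12%. Without the 3 libraries whose FPKM summed to under 800000, chosen after seeing the data, it was 2 in DKO against KH and 2 in KH against KO, beside 11.4% of all genes and 1721 of 17168, but KH and DKO then have 1 library each. A genotype left with 1 library, there or when 1 library of 2 is left out, is assumed to vary like the other genotypes, which supply the spread. Leaving out 1 library gave 0 to 2 in DKO against WT and in KO against WT, 0 to 3 in KH against WT (3 without KH replicate 2), 0 to 1 in DKO against KO, and 0 to 2 in DKO against KH and in KH against KO (2 without KH replicate 1). The share of all genes moved too, from 6.14% to 16.2% in DKO against WT, and it was 9.81% in KH against WT without KH replicate 2, and 11.7% in DKO against KH and 10.1% in KH against KO without KH replicate 1. Without 1 of the KO libraries, which leaves at least 2 in each genotype, the share ran from 2.02% to 12.0% in KO against WT. In DKO against KO it then ran from 5.33% to 7.61%. TPM moved the median of all genes in KH against WT by 0.104 on the log2 scale.

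Of the 30 differences of members from WT, TPM turned Wnt10b in DKO to -0.0296 and Ptch1 in KH to 0.0768, and median ratio scaling turned Ptch1 in KH to 0.0118. Without the 3 libraries of low FPKM sum, the DKO values of Edar, Gli1, Shh and Wnt10b were -0.0513, -0.127, -0.213 and -0.465, the KO values of Gli1, Shh, Wnt10b and Sox9 were -0.103, -0.210, -0.149 and -0.0435, and the KH values of Wnt10a, Lef1, Edar, Lhx2, Shh, Wnt10b, Sox9 and Eda were -0.00489, -0.190, -0.0960, -0.356, -0.366, -0.191, -0.352 and -0.109. Leaving out 1 library, the DKO range was -0.0513 to 0.905 for Edar, -0.127 to 0.998 for Gli1, -0.213 to 0.858 for Shh, -0.465 to 0.533 for Wnt10b, -1.31 to 0.221 for Ptch1 and -0.287 to 0.182 for Eda. The KO range was -0.103 to 0.461 for Gli1, -0.210 to 0.396 for Shh, -0.149 to 0.454 for Wnt10b, -0.0435 to 0.165 for Sox9, -0.667 to 0.232 for Ptch1 and -0.139 to 0.330 for Eda. The KH range was -0.00489 to 0.933 for Wnt10a, -0.190 to 1.13 for Lef1, -0.0960 to 1.07 for Edar, -0.356 to 1.74 for Lhx2, -0.366 to 1.10 for Shh, -0.191 to 0.676 for Wnt10b, -0.352 to 0.661 for Sox9, -0.866 to 0.791 for Ptch1 and -0.179 to 0.290 for Eda. Of the ranges given, those of members other than Eda and Ptch1 have their low ends in the fits without DKO replicate 2, KO replicate 1 or KH replicate 1. The cause was not tested. When 1 library was left out, Wnt10a in DKO ran from 0.981 to 1.21.

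Replicate numbers of the titles did not pair the libraries: deviations of same-numbered libraries from their genotype means correlated from -0.599 to 0.490 over 12197 genes. The numbers in the sample descriptions differ from those of the titles. Mutant libraries that share one correlated at 0.490 (KO replicate 1 with KH replicate 1) and 0.347 (KO replicate 2 with KH replicate 2). DKO replicate 1 correlated with KO replicate 2 at 0.573 and with KH replicate 2 at 0.456. With WT replicate 1, KO replicate 1 correlated at 0.0356 and KH replicate 1 at -0.241. What the description numbers stand for was not tested. A replicate block by the description numbers was added after seeing the data. It gave 4 members with an unadjusted p below 0.05 in KO against WT, 4 in KH against WT and 1 in DKO against WT. These stand beside 12.4%, 8.68% and 9.69% of all genes, and limma called 0 genes in any comparison. With the replicate block by title number, 1 member in DKO against WT, 1 in KO against WT and 0 elsewhere had an unadjusted p below 0.05, beside 12.5% and 9.42% of all genes in the first 2 comparisons, and the number of all genes called in DKO against WT was 67 in place of 123. Crossing the KH numbers, added after seeing the data, left 43 genes called in DKO against KH and 0 in KH against WT. Genes of the 8 lists called in DKO against WT numbered 1 with that replicate block and 6 of 144 with arrayWeights, where 0.397% and 3.29% of all genes were called. FPKM gives no counts, so no limit from depth could be computed.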

Other observations

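The melanocyte markers, which were read only to check the tissue, differed between the 2 DKO libraries like the follicle genes. Dct, an enzyme of melanin synthesis, was at 22.50 and 21.44 FPKM in WT, between 33.06 and 38.95 in KO, at 76.51 and 27.35 in KH and at 46.03 and 99.05 in DKO. Pmel, the fibril protein of pigment granules, was at 14.53 and 13.12 FPKM in WT, between 21.87 and 26.19 in KO, at 44.87 and 14.33 in KH and at 27.03 and 56.12 in DKO. In both genes KH replicate 1 and DKO replicate 2 were the highest libraries.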
